A study of Mus musculus with 22 samples.

Results

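The accessible regions around Slc2a1 were described in FACS-sorted endothelium of the mouse retina at postnatal day 6. The members are all ATAC-seq regions whose midpoint lies on chromosome 4 between 118700000 and 118900000 (mm9), a window that holds Slc2a1 with its flanks. They number 124 of the 106825 regions on the placed chromosomes, with 33 in the gTKO list and 91 in the control list. The window was chosen by the number of control regions without a gTKO counterpart in earlier results of these data, so the values below are a description and carry no test. gTKO pups had floxed S1pr1 and S1pr2 alleles, no S1pr3 and the tamoxifen-dependent recombinase Rosa26-CreERT2 (3 libraries). Control pups had the same floxed alleles on the same S1pr3-null background without the recombinase (3 libraries). Both genotypes were on the C57BL/6 background and received 100 µg tamoxifen by intraperitoneal injection between postnatal days 1 and 3. Each library came from the pooled retinas of 4 to 6 pups, with 5000 to 8000 sorted cells per reaction. The labels also call the cells adult, which conflicts with the stated age. Rosa26 is active in most cell types, so recombination was not limited to endothelium, and effects of the recombinase itself cannot be told apart from those of the receptor deletions. Each genotype is represented by 1 list of regions for its 3 libraries, so no value below has a replicate error. The sort was not checked against endothelial marker genes, since no mm9 annotation was used here.

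Slc2a1 encodes GLUT1, the facilitative transporter that carries glucose across the endothelium of the blood-retina and blood-brain barriers. Its abundance marks barrier endothelium, and Wnt/beta-catenin signalling is known to sustain it there, while hypoxia-inducible factors raise it in many cell types. The products of S1pr1, S1pr2 and S1pr3 are cell-surface receptors that sense sphingosine 1-phosphate, a lipid carried in blood, and S1pr1 is abundant in endothelium. ATAC-seq uses the Tn5 transposase to cut and tag DNA that is not covered by nucleosomes, so that promoters and enhancers appear as regions dense in cuts. A region that is listed in one genotype alone may be cut in fewer cells or less often per cell in the other, and these cannot be told apart here.

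The Slc2a1 promoter is shown because the window was laid around this gene. The sequence is from RefSeq (GRCm38.p6, plus strand of chromosome 4) and gives the 250 bases before the annotated start, with the motif matches described next in capitals.
Slc2a1 promoter: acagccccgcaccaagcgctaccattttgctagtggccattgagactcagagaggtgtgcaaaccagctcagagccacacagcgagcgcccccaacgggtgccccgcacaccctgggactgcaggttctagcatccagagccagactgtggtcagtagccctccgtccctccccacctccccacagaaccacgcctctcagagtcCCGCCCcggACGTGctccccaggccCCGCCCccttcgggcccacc
Of its bases, 66.4% were G or C. The letters ACGTG, a form of the core of the hypoxia response element, occurred once, with the first base 36 bases before the start. ACGTG was present on either strand in 16.6% of the 32851 RefSeq promoters of this length. The form GCGTG was not searched for, so these values do not count every match of the core. The GC box GGGCGG occurred on the minus strand at 45 and 20 bases before the start, and 32.7% of promoters held it. No match was found for TGANTCA, the AP-1 motif (6.75% of promoters), CTTTGAT, a TCF/LEF motif (3.21%), or CCGGAAGT, an ETS motif (2.88%). The searches covered both strands, and no match overlapped another. Which of the regions below contains this promoter was not determined, since positions were not carried between builds. In the GRCm38 gene table, the lncRNA genes Gm52706 and Gm12867 overlap Slc2a1, Gm35510 precedes it, and Zfp691 and Ermap follow it.

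Across the window, nearly all gTKO regions lay on control regions, while most control regions had no gTKO region on them. A partner is a region listed for the other genotype that shares 1 bp or more. Of 33 gTKO regions, 32 had a control partner and 1 had none (3.03%, exact 95% interval 0.0767 to 15.8%), beside 9.75% without a partner in the gTKO list as a whole. Of 91 control regions, 27 had a gTKO partner and 64 had none (70.3%, 59.8 to 79.5%), beside 27.0% in the control list as a whole. Intervals here and below cover counting error only and treat neighbouring regions as independent. The gTKO list covered 15445 bp of the window and the control list 41704 bp, and 15230 bp were covered in both. The ratio of covered sequence, gTKO over control, was 0.370 in the window, 0.759 on chromosome 4 and 0.771 over all placed chromosomes. The read depth behind the lists is unknown, and its part in these differences was not tested.

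**Figure D1:**
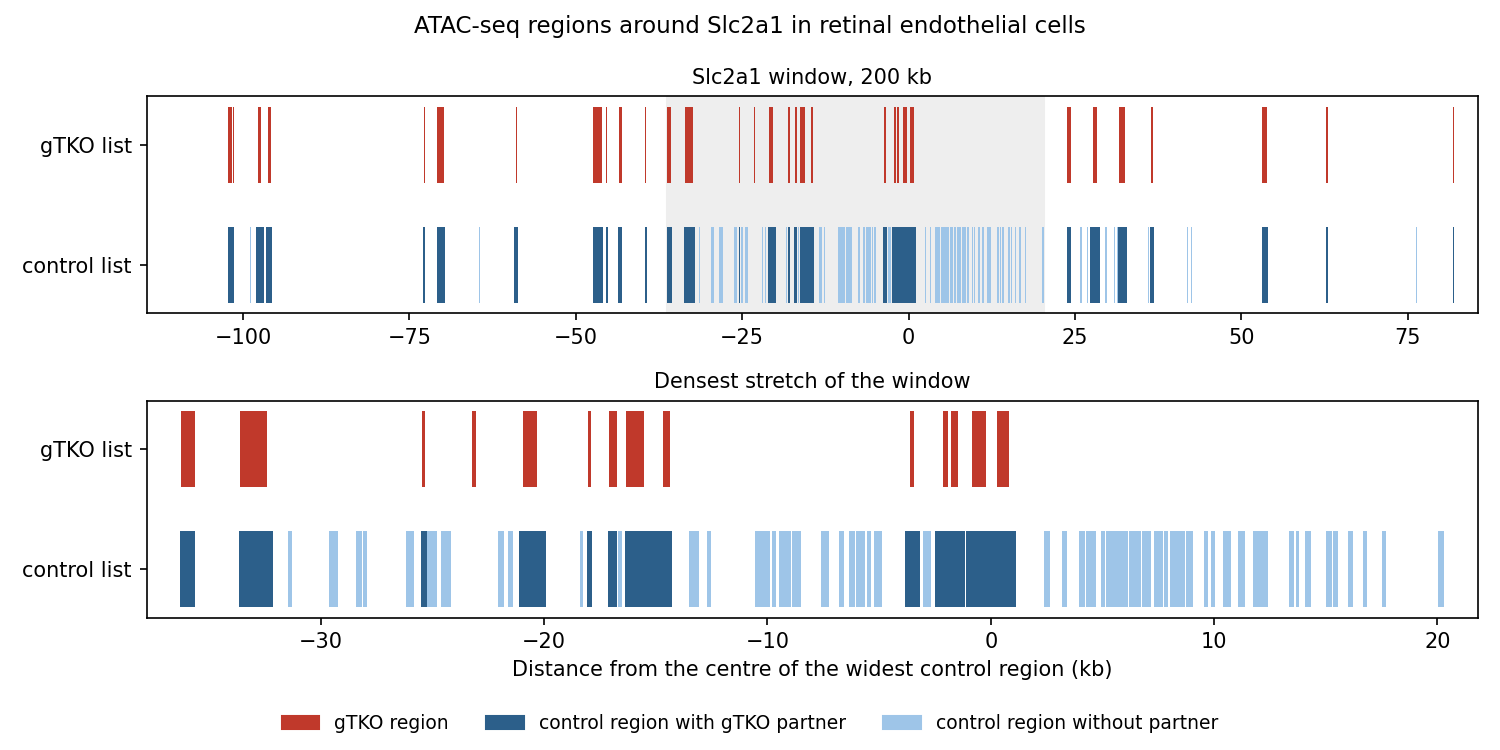
Positions of ATAC-seq regions around Slc2a1, as distance in kb from the centre of the widest control region. Red bars are gTKO regions, dark blue bars control regions with a gTKO partner and light blue bars control regions without one. The upper panel shows the 200 kb window with its densest stretch shaded, and the lower panel that stretch, where 53 of 63 control regions are light blue.

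Joining neighbours of either list across gaps of up to 3 kb gave 14 stretches in the window. The densest ran from 118778204 to 118834794 (56.6 kb) and held 82.8% of the control-only regions of the window. The gTKO list covered 11.2% of its length and the control list 47.2%. Of the control sequence in it, 23.0% was also covered in the gTKO list, 16.8% was the uncovered remainder of regions that had a partner, and 60.2% lay in the 53 regions without a partner. Most of the difference in covered sequence thus lay in regions absent from the gTKO list, and a smaller share in narrower paired regions.

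Along the densest stretch, regions with and without partners alternated in 14 runs. At its low-coordinate end, the gTKO regions from 118778245 to 118778867 (623 bp) and from 118780877 to 118782082 (1206 bp) lay inside control regions from 118778204 to 118778887 (684 bp) and from 118780826 to 118782348 (1523 bp). These were the most completely kept of the wider regions in the stretch, at 0.911 and 0.792 of the control width. The next 5 control regions, between 118783050 and 118788658 and 159 to 379 bp wide, had no partner. A gTKO region of 150 bp from 118789015 to 118789164, the narrowest width in either list, then lay inside a control region of 239 bp from 118789001 to 118789239.

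The single gTKO region of the window without a control partner followed, from 118791262 to 118791464 (203 bp). It lay among 4 control regions without a partner, spread from 118789252 to 118793115 and 227 to 453 bp wide. The gTKO region from 118793547 to 118794186 (640 bp) took up 0.533 of a control region of 1201 bp that began at 118793392. The gTKO regions from 118796448 to 118796614 (167 bp) and from 118797417 to 118797778 (362 bp) nearly filled control regions of 188 bp and 434 bp, at 0.888 and 0.834 of their widths. The second widest control region of the window, from 118798136 to 118800249 (2114 bp), held 2 gTKO regions, from 118798166 to 118798954 (789 bp) and from 118799806 to 118800134 (329 bp), which together covered 52.9% of it.

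Beyond this point the gTKO list was empty for 10.7 kb, from 118800135 to 118810880. That gap held 13 control regions between 118801009 and 118809619, which covered 4160 bp and were 165 to 676 bp wide. Of these, 2 exceeded 500 bp, from 118803963 to 118804638 (676 bp) and from 118805036 to 118805543 (508 bp). In the whole control list, 2.37% of regions of at least 500 bp had no gTKO partner.

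The gTKO list resumed ahead of the widest control region of the window. A gTKO region of 205 bp from 118810881 to 118811085 took up 0.306 of a control region of 669 bp from 118810670 to 118811338, the lowest share of any pair in the window. After 2 control regions of 156 and 203 bp without a partner came 2 wide control regions close together. The first, from 118812004 to 118813346 (1343 bp), held gTKO regions from 118812344 to 118812591 (248 bp) and from 118812729 to 118813017 (289 bp), which covered 40.0% of it. The second and widest, from 118813389 to 118815617 (2229 bp), held gTKO regions from 118813682 to 118814274 (593 bp) and from 118814790 to 118815328 (539 bp), which covered 50.8% of it. In each of these, the gTKO list thus had a pair of separate regions where the control list had a continuous one.

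From 118815329 to 118838333 the gTKO list was again empty, for 23.0 kb. The control list had 27 regions there, between 118816905 and 118834794, that covered 8517 bp, or 47.6% of that span. Their widths ranged from 153 to 998 bp with a median of 246 bp. The widest control-only region of the window was among them, from 118819653 to 118820650 (998 bp). The other 3 of at least 500 bp lay from 118820670 to 118821226 (557 bp), from 118822516 to 118823193 (678 bp) and from 118826248 to 118826909 (662 bp). Together the longest 2 runs without a partner held 40 control regions and 12677 bp.

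On the low-coordinate side of the densest stretch, the lists were more alike. There, 12 of 12 gTKO regions and 10 of 12 control regions had a partner, and the ratio of covered sequence was 0.681. With 0 of 12 gTKO regions lacking a partner, 3 counts of the total allow a share of up to 25.0%, and the exact upper limit is 26.5%. The group farthest out, from 118712177 to 118718785, had 4 gTKO regions over 1684 bp and 4 control regions over 3196 bp. Its first control region (974 bp) held gTKO regions from 118712261 to 118712900 (640 bp) and from 118712912 to 118713074 (163 bp), only 11 bp apart. Its widest, from 118716396 to 118717662 (1267 bp), held a gTKO region of 519 bp from 118716702 to 118717220, and a control region of 770 bp from 118718016 held a gTKO region of 362 bp from 118718267 to 118718628. Its remaining control region, of 185 bp from 118715579, had no partner.

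Nearer the densest stretch the match between the lists varied. From 118741607 to 118744834 the gTKO list covered 1311 bp and the control list 1452 bp, a ratio of 0.903. This stretch held gTKO regions from 118741614 to 118741815 (202 bp), from 118743587 to 118743874 (288 bp) and from 118743893 to 118744713 (821 bp), against control regions of 213 bp (from 118741607) and 1239 bp (from 118743596). From 118767153 to 118771500 the ratio was 0.845, with gTKO regions of 1220, 162 and 564 bp starting at 118767153, 118769060 and 118770937, against control regions of 1377, 324 and 603 bp starting at 118767154, 118768964 and 118770898. The gTKO region of 1220 bp was the widest gTKO region of the window. A gTKO region of 250 bp from 118774870 matched a control region of 283 bp from 118774866. Between these groups, a gTKO region of 213 bp from 118755511 lay in a control region of 517 bp from 118755246, and a control region of 185 bp from 118749896 had no partner.

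On the high-coordinate side, all 7 gTKO regions and 7 of 16 control regions had a partner, and the ratio was 0.525. With 0 of 7 gTKO regions lacking a partner, 3 counts of the total allow a share of up to 42.9%, and the exact upper limit is 41.0%. The stretch from 118838321 to 118847259 had 3 gTKO and 8 control regions, covering 2046 bp and 4368 bp. Its gTKO region from 118838334 to 118838905 (572 bp) was the best matched of the window, at 0.981 of a control region of 583 bp. In contrast, the gTKO region from 118842169 to 118842773 (605 bp) took up 0.402 of a control region of 1505 bp from 118841712, and the one from 118846188 to 118847056 (869 bp) 0.684 of a control region of 1270 bp from 118845990. The 5 control regions of this stretch without a partner were 171 to 306 bp wide, with the widest starting at 118844015 (306 bp) and 118840314 (184 bp). Farther out, gTKO regions of 437, 722, 257 and 236 bp, starting at 118850873, 118867690, 118877298 and 118896280, lay inside control regions of 508, 917, 357 and 272 bp. The 4 remaining control regions there had no partner and were 170 bp (from 118850472) and 150 bp wide (from 118856349, 118856982 and 118890825).

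**Figure D2:**
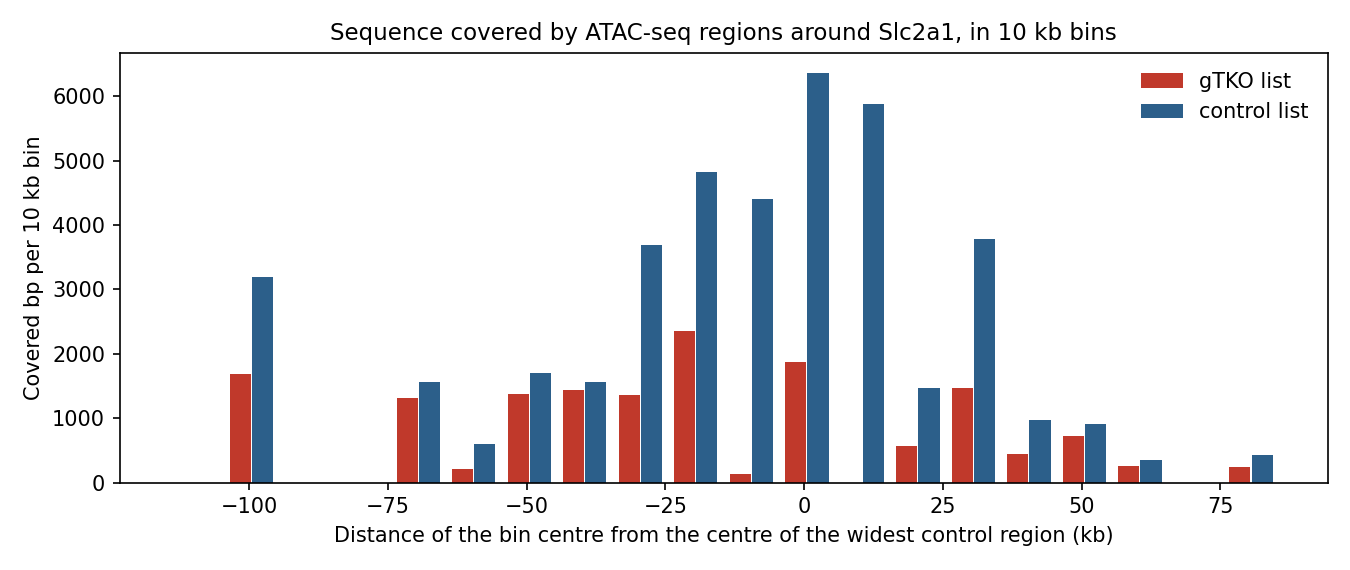
Base pairs covered by the gTKO list (red) and the control list (blue) in 10 kb bins of the window, by distance of the bin centre from the centre of the widest control region in kb. Both lists start at 0 on the vertical axis. The control list covers 6356 bp in its fullest bin, where the gTKO list covers 1874 bp, and in the next bin the control list covers 5877 bp and the gTKO list 0 bp.

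In 10 kb bins of the window, the gTKO list reached its highest coverage at 2355 bp, between 118790000 and 118799999, where the control list covered 4828 bp. The control list was highest at 6356 bp, between 118810000 and 118819999, where the gTKO list covered 1874 bp. Between 118800000 and 118809999 the gTKO list covered 135 bp and the control list 4410 bp, and between 118820000 and 118829999 the gTKO list covered 0 bp and the control list 5877 bp. The peak of coverage thus lay in different bins of the 2 lists.

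Among regions matched 1 to 1 between the lists, the gTKO region was the narrower one in 22 of 22 pairs in the window (exact 95% interval 84.6 to 100%), beside 79.5% of all pairs on the placed chromosomes. The median width was 399.5 bp in the gTKO list and 593 bp in the control list. The median ratio of widths, gTKO over control, was 0.790 in the window (lowest 0.306, highest 0.981) and 0.866 over all pairs. The median ratio was 0.792 for 7 pairs in the densest stretch and 0.787 for 15 pairs in the rest of the window. These medians were close, but the pairs leave out control regions that held 2 or more gTKO regions. The gTKO list covered 52.9, 40.0 and 50.8% of such control regions in the densest stretch. In the rest of the window it covered 82.4 and 88.8% of them. In 20 of the 22 pairs the gTKO region lay wholly inside the control region, beside 23735 of 37878 pairs on the placed chromosomes. The median inset in the window was 60 bp at the start and 61 bp at the end. Over all pairs it was 30 bp at either end. Of the 33 gTKO regions, 29 lay wholly inside control sequence (87.9%), beside 58.7% of all gTKO regions. As the window was chosen by its control-only regions, its narrower and contained gTKO regions are a description and no test. Control regions that held 2 or more gTKO regions numbered 5 of 91, or 5.49%, beside 5.28% of the whole control list, a share near that of the whole list.

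**Figure D3:**
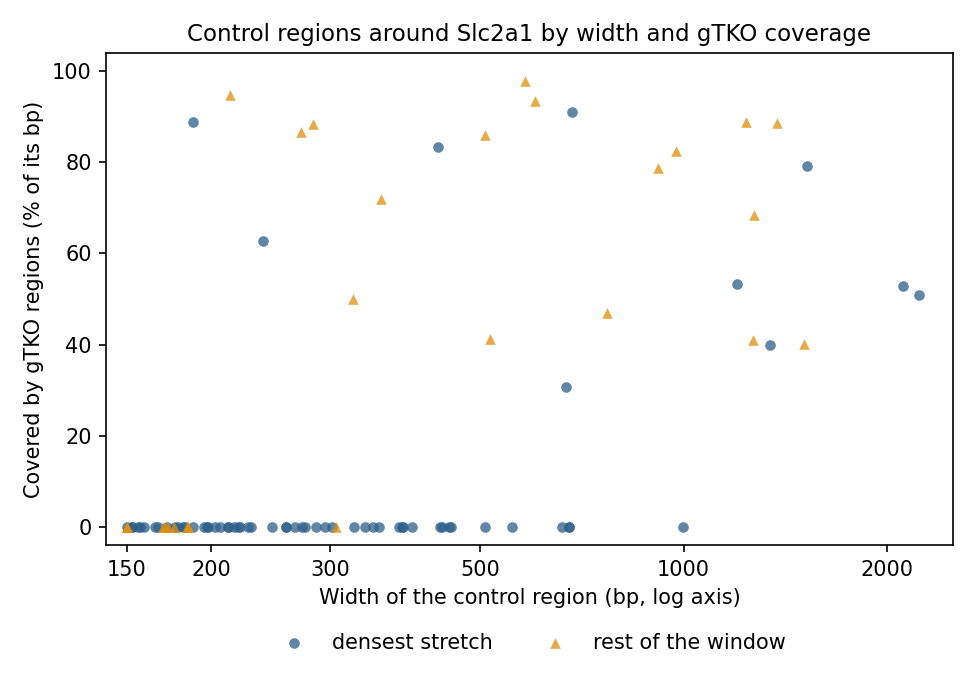
Each point is a control region of the window, by its width in bp (log axis) and the percentage of its bases covered by gTKO regions. Circles are regions of the densest stretch and triangles those of the rest of the window. All 10 regions of at least 1000 bp have some coverage, whereas most regions of the densest stretch under 1000 bp lie at 0.

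Control regions with a partner were mostly wide and those without mostly narrow. All 10 control regions of at least 1000 bp in the window had a gTKO partner, beside 99.5% over the placed chromosomes. Of 15 regions of at least 500 and under 1000 bp, 9 had one, beside 96.3%. The 6 without all lay in the densest stretch. Of 66 regions under 500 bp, 8 had one, beside 57.9%. The rise of the partner share with width was thus also present in the whole control list. The median width of control regions in the window was 684 bp with a partner and 217.5 bp without.

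In the densest stretch, the share of control regions with a partner was low in each width class under 1000 bp. With a partner were 1 of 18 regions of 150 to under 200 bp (5.56%, exact 95% interval 0.141 to 27.3%), beside 33.6% of that class over the placed chromosomes. The shares were 1 of 18 at 200 to under 300 bp (5.56%, 0.141 to 27.3%), beside 61.5%, and 1 of 14 at 300 to under 500 bp (7.14%, 0.181 to 33.9%), beside 80.9%. They were 2 of 8 at 500 to under 1000 bp (25.0%, 3.19 to 65.1%), beside 96.3%, and 5 of 5 at 1000 bp or more, beside 99.5%. At the partner shares of the placed chromosomes, the widths of the 63 control regions would correspond to 41.1 regions with a partner, and 10 had one. For the 28 control regions in the rest of the window, the same reckoning gives 19.4, and 17 had one. Since the window was chosen for such regions, these differences describe the choice and do not test it.

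**Figure D4:**
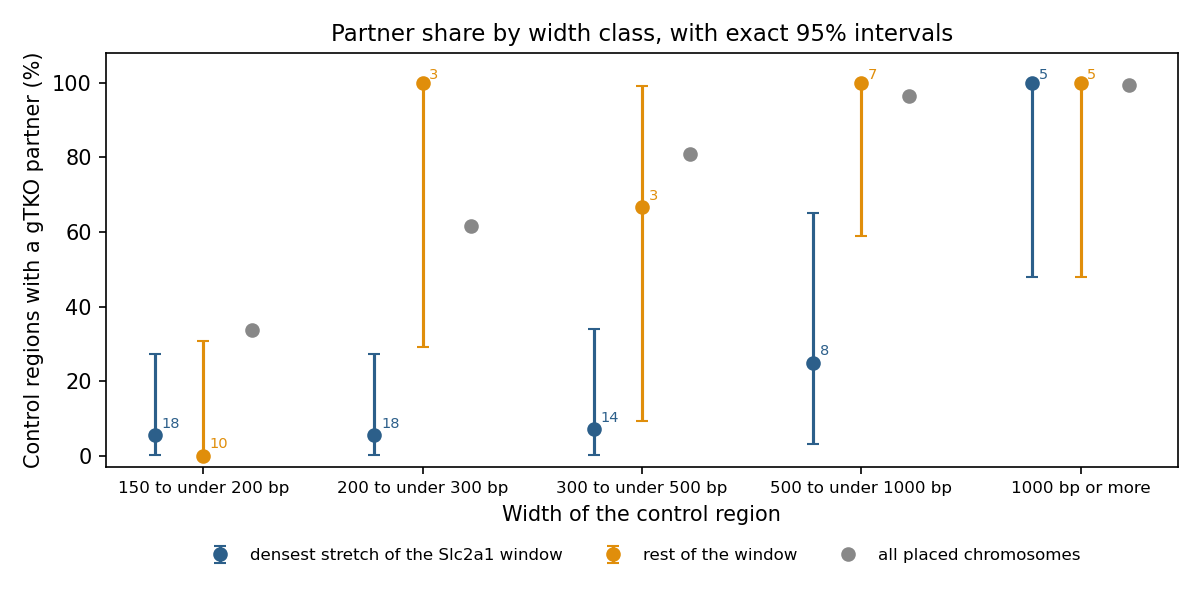
Percentage of control regions with a gTKO partner by width class, for the densest stretch of the window (blue), the rest of the window (orange) and all placed chromosomes (grey). Bars on blue and orange points are exact 95% intervals, and small numbers give the control regions in each class. Below 500 bp the densest stretch lies between 5.56 and 7.14%, and at 1000 bp or more all 5 of its regions have a partner.

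The densest stretch of the window, whose position relative to the Slc2a1 exons was not determined, was set beside the other stretches of like density. Chained in the same way, 44 stretches on the placed chromosomes held 20 or more control regions. They were picked by the control list alone, which can favour high control-only shares and low ratios. The window itself was chosen for control-only regions, so the ranks below are a description. The stretch in the Slc2a1 window ranked 2nd by number of control regions (63) and 5th by control coverage (26.7 kb). Its share of control regions without a partner, 84.1%, ranked 8th, and the other 43 stretches had a median of 64.3% (range 3.85 to 100%). Its ratio of covered sequence, 0.237, was the 8th lowest, and the others had a median of 0.433 (range 0 to 1.30). A lower ratio was thus found in 7 of the other dense stretches.

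By width, 3 of 50 control regions under 500 bp in this stretch had a partner (6.00%, exact 95% interval 1.25 to 16.5%), and in the other dense stretches together 305 of 896 did (34.0%, 30.9 to 37.2%). At 500 to under 1000 bp, 2 of 8 regions of this stretch had a partner (25.0%, 3.19 to 65.1%). In the others, 148 of 222 did (66.7%, 60.0 to 72.8%). At 1000 bp or more, 5 of 5 regions of this stretch had a partner (47.8 to 100%), and in the others 146 of 171 did (85.4%, 79.2 to 90.3%). Regions of several stretches were pooled for this, and no test was made. On the placed chromosomes, neighbouring control regions without a partner formed 10342 runs, with a median length of 1 region. The run of 27 from 118816905 to 118834794 was the second longest, after a run of 61 on chromosome 8 from 11800438 to 11887147. The run of 13 from 118801009 to 118809619 ranked 15th. Both ranks describe the choice of the window, which was made by control-only regions.

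**Figure D5:**
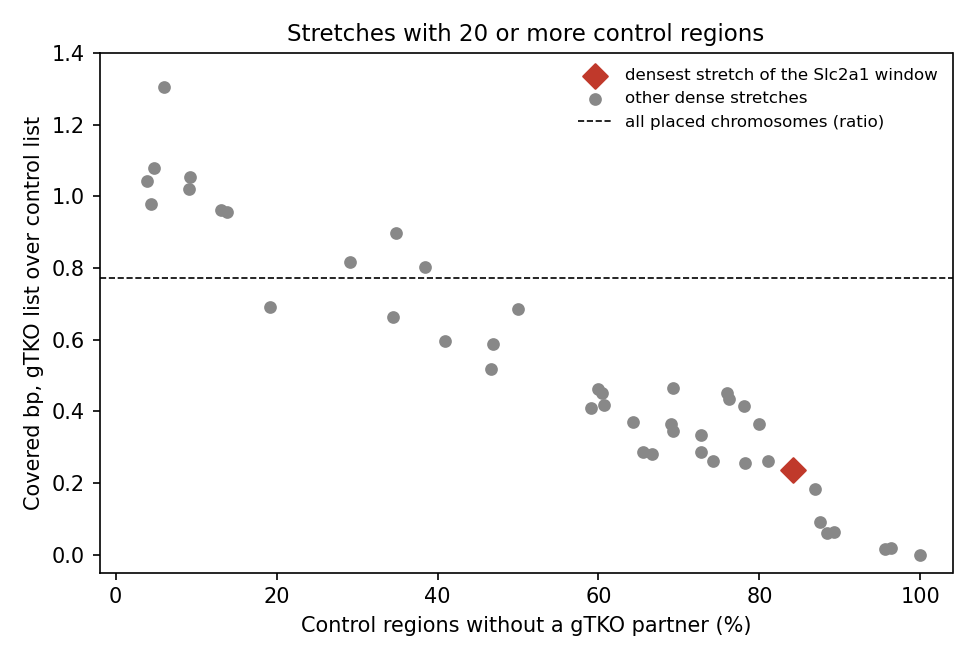
Stretches with 20 or more control regions, by the percentage of control regions without a gTKO partner and the ratio of covered bp, gTKO list over control list. The red diamond is the densest stretch of the Slc2a1 window (84.1%, 0.237), grey points are the other 43 stretches, and the dashed line is the ratio over all placed chromosomes (0.771).

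At the borders of the window the lists were close to each other. The last regions outside on the low-coordinate side were a gTKO region of 770 bp from 118694335 and a control region of 1003 bp from 118694194. The first members inside were a gTKO region of 640 bp from 118712261 and a control region of 974 bp from 118712177. On the high-coordinate side, the last members were a gTKO region of 236 bp and a control region of 272 bp, both described above, and the next regions outside measured 1591 bp in the gTKO list (from 118904853) and 1604 bp in the control list (from 118904812). None of these regions lay within 3 kb of a border.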

How the data were processed

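ATAC-seq was carried out on 3 gTKO and 3 control libraries. The deposited values are the start and end of each peak in 1 list per genotype, without score, summit, p-value or depth. Bowtie2, Picard, MACS2, bedtools and the mm9 build are listed per the submitters' processing notes. The calling threshold and whether reads were pooled are not stated in these sources. The 16 RNA-seq libraries of the series were not analysed here.

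Starts were converted to 1-based positions. Regions on unplaced sequences (620 gTKO, 1044 control) were left out. A partner is a region of the other list with at least 1 bp of overlap, and stretches chain regions of both lists at gaps of up to 3 kb. Shares have exact 95% Clopper-Pearson intervals. With 1 list per genotype no test between genotypes was possible. The rule for naming took every gTKO region of a stretch, its 5 widest control regions and every control-only region of at least 500 bp. In the longer stretches, the runs of control-only regions are given by their range. The overlap, chaining and joining procedures were tested on simulated data made from the control list. The window, lists and settings were chosen with earlier results of these data known. Python 3.11.15 was used with scipy 1.17.1, pandas 2.3.3, numpy 2.4.6 and matplotlib 3.10.9.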

Additional observations from a re-analysis of the deposited data

How the results depend on the processing

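Of 32 values under other settings, 27 stayed close to those given above. Close means within 1.5 times of a count or ratio and within the exact interval of a share. These values are not independent, since the control-only count and share rest on the same regions. Taking any overlap with the window could not move a value, as no region crosses a border. Leaving out everything narrower than 300 bp gave 25 control-only regions in the window, 59.5% of the 42 left, and 0 gTKO-only regions, since narrow regions and narrow partners are removed. Requiring 50% of both regions to overlap gave 14 gTKO-only regions, since a narrow gTKO region fills little of a wide control region. With chaining at 1 kb, the stretch with the most regions ran from 118816905 to 118832188 and held no gTKO region, so its ratio was 0. Chaining at 5 kb or 10 kb gave 0.318. Reducing the control list to its widest regions, as many as the gTKO list holds, gave 49 control-only regions of 76 (64.5%) and a window ratio of 0.393. No paired analysis was possible because the 3 libraries of a genotype share 1 list, which also keeps replicates from being left out. A stricter threshold could not be applied, since the lists hold no score. Depth is unknown, and its part in these values was not tested.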

Other observations

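When the placed chromosomes were divided into windows of 200 kb aligned with that of Slc2a1, 8329 windows held a control region, with a median of 4. The Slc2a1 window ranked 2nd by the number of control regions (91) and by the number of control-only regions (64), and 7th by control coverage. As the window was chosen by its control-only regions, these ranks describe that choice and are no separate result. Among the 513 windows with 20 or more control regions, the ratio of covered sequence, gTKO over control, had a median of 0.729 (range 0.101 to 2.24). The Slc2a1 window was the 11th lowest. These windows were picked by the control list alone, which can favour low ratios, and the choice of the Slc2a1 window bears on its rank. Neighbouring regions were close together in the densest stretch of the Slc2a1 window, with a median gap of 1.26 kb in the gTKO list and 0.221 kb in the control list, where 19 of 62 gaps were at most 100 bp. Joining the regions of each list at such gaps left 71 control and 31 gTKO regions in the window, of which 45 control regions (63.4%) had no partner.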
